A study of Mus musculus with 10 samples.

Results

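Embryonic stem (ES) cells trisomic for chromosome 11 were compared with ES cells trisomic for chromosome 15. The lines, Ts11 and Ts15, carry 3 copies of their chromosome, and both are labelled as cells of the strain 129 S7/SvEvBrd. Each was sampled as 2 biological replicates, Ts11 at passages 8 and 11 and Ts15 at passages 11 and 14, which gave 4 of the 10 arrays of the study. The other 6 arrays, of diploid AB1 cells (WT, a male line, passages 18 and 20) and of lines trisomic for chromosome 6 or 8, entered the estimate of the spread. Members were chosen by label alone. All cells were grown on irradiated SNL76/7 feeder cells, which were depleted by settling before RNA was taken. Each karyotype is represented by a single line, so what belongs to the trisomy and what belongs to the line cannot be told apart. The Ts11 arrays shared slide 1 with the other groups, while slide 2 carried Ts15 alone, so slide and line cannot be told apart either.

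A trisomy adds an extra copy of every gene of a chromosome, and where expression follows copy number a gene of that chromosome yields 3 transcripts for every 2 in diploid cells. Between these lines, chromosome 11 is thus at 3 copies against 2 and chromosome 15 at 2 against 3, while the other chromosomes are at equal number by label. Mouse ES cells are self-renewing cells of the early embryo's epiblast. In culture, a few of them enter other states, among them primitive endoderm, which forms the yolk sac lining, and a state that resembles the 2-cell embryo.

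Levels are the log2 signal of a gene's brightest probe relative to the 75th percentile of its array, so a level of 0 lies at that percentile. Differences are Ts11 minus Ts15 on that log2 scale, and a difference of 1 is 2-fold. Of 28192 genes tested, 1996 lie on chromosome 11 and 1105 on chromosome 15. A gene was called where limma's Benjamini-Hochberg adjusted p over all genes was under 0.05. The share of spots well above background was 71.4% to 77.0% on the Ts11 arrays and 72.3% to 73.3% on the Ts15 arrays. Across genes, replicate arrays correlated at 0.993 in Ts11 and 0.994 in Ts15, and arrays of different lines at 0.982 to 0.985.

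The ES cell markers were high on all 4 arrays. Of the 9 defining markers, all were above background on all 4 arrays, and Pou5f1 and Nanog, core factors of pluripotency, were not called, with differences of -0.21 and -0.20. Klf4 was higher in Ts11, by 0.45, and Utf1 higher in Ts15 (difference -0.47); the Klf4 call was lost without Ts11 replicate 2 or either Ts15 array and the Utf1 call whichever of the 4 arrays was left out (adjusted p 0.053 to 0.182). Of 30 feeder fibroblast genes tested, 3 were higher in Ts15 (10%, against 5.77% of all genes) and none in Ts11 (9.27% of all genes). The median difference of these feeder genes was -0.31. Their summed signal was 91.0 and 78.5 on the Ts11 arrays and 96.7 and 109 on the Ts15 arrays, in units of the 75th percentile signal.

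The chromosome at 3 copies was higher in each line. Chromosome 11 genes had a median difference of 0.20, chromosome 15 genes a median of -0.25, and genes elsewhere a median of -0.01. In Ts11, 69.7% of chromosome 11 genes were higher than in Ts15, and in Ts15 72.0% of chromosome 15 genes were higher than in Ts11. On the other 17 autosomes, the share of genes higher in Ts11 lay between 43.3% and 56.2%. The plot of differences by chromosome shows whole distributions that are displaced, and not only a few outlying genes.

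**Figure D1:**
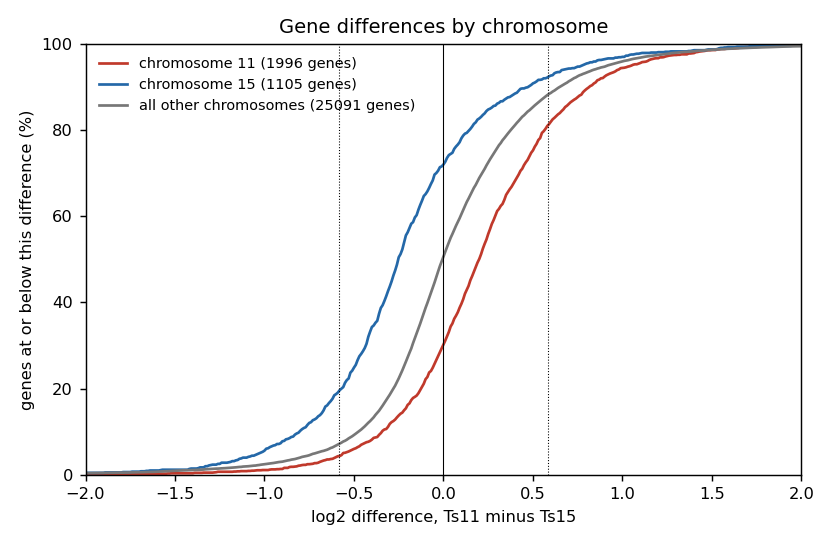
Cumulative share of genes (y axis, percent) at or below each log2 difference, Ts11 minus Ts15 (x axis), for chromosome 11, chromosome 15 and all other chromosomes; dotted lines mark plus and minus log2 of 3/2 (0.58). The chromosome 11 curve lies to the right of the others, with a median of 0.20, and the chromosome 15 curve to the left, with a median of -0.25.

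The displacement was also measured array by array. Each array gave a mean level for the genes of a chromosome, from which the mean over 15 autosomes at normal copy number throughout the study was subtracted. This gave, for chromosome 11, values of 0.53 and 0.55 on the Ts11 arrays and 0.36 and 0.35 on the Ts15 arrays. Both Ts11 arrays thus lay above both Ts15 arrays, by a mean shift of 0.18 ± 0.01 (SE, n = 2 per line). For chromosome 15 the values were 0.08 and 0.07 in Ts11 and 0.33 and 0.31 in Ts15, a shift of -0.24 ± 0.01 (SE, n = 2 per line). The exact permutation test of 2 arrays against 2 gave p = 0.333 for either chromosome (two-sided), which is the smallest p this design allows. The shifts correspond to 31.4% and 41.5% of the log2 of 3/2 that full proportionality to copy number would give on this scale, or to 1.14-fold and 1.18-fold. No other autosome shifted by more than 0.06 in either direction. The X chromosome shifted by 0.19, as far as chromosome 11.

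**Figure D2:**
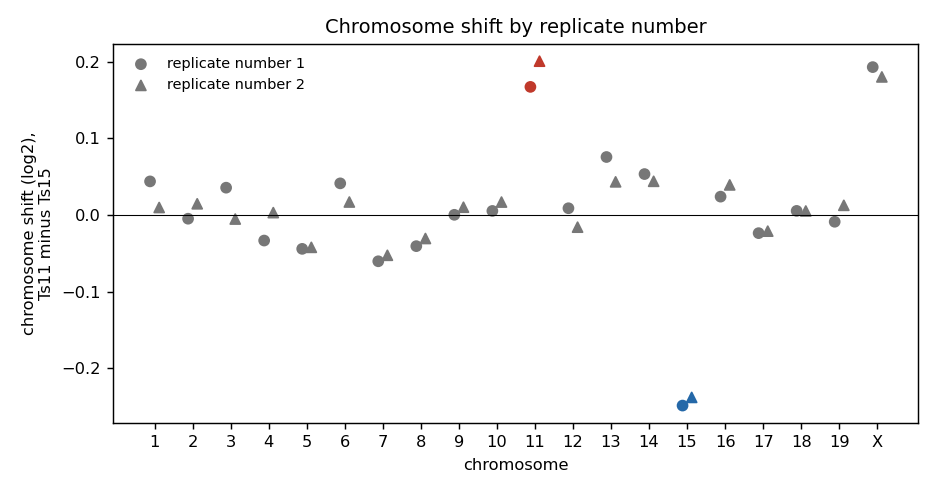
Chromosome shift (y axis, log2, Ts11 minus Ts15) for each chromosome (x axis), with circles for replicate number 1 and triangles for replicate number 2 of both lines. Chromosome 11 lies at 0.17 and 0.20, chromosome 15 at -0.25 and -0.24 and the X chromosome at 0.19 and 0.18, while the other autosomes lie between -0.06 and 0.08.

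Single genes spread widely around these shifts. On chromosome 11, 18.8% of genes were higher in Ts11 by more than log2 of 3/2 and 4.36% were lower by more than that. On chromosome 15, 19.3% were higher in Ts15 by that much and 7.51% lower. Elsewhere 11.7% and 7.11% lay beyond the same bounds on the side of Ts11 and of Ts15. For classes of genes, the shift was taken against the genes of the same class on the 15 autosomes. The chromosome 11 shift was 0.13 among genes of low level, 0.23 at middle level and 0.23 at high level, 3 classes by mean level. That of chromosome 15 was -0.22, -0.30 and -0.21. Without that subtraction, the median differences were 0.32, 0.25 and 0.13 on chromosome 11 and -0.02, -0.28 and -0.305 on chromosome 15. Of the 365 low-level genes of chromosome 15, 45 were called higher in Ts11 (12.3%) and 38 in Ts15 (10.4%). LincRNAs, the long intergenic noncoding RNAs on the array, shifted by 0.15 on chromosome 11 (174 lincRNAs) and by -0.13 on chromosome 15 (178 lincRNAs). The other genes of these chromosomes shifted by 0.20 and -0.27. The median difference of the chromosome 15 lincRNAs was 0.003. Of these lincRNAs, 17 were called higher in Ts11 (9.55%) and 13 in Ts15 (7.30%), against 9.27% and 5.77% of all genes.

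The shift ran along the whole of both chromosomes with local exceptions. In stretches of 10 Mb (mm9), all 13 stretches of chromosome 11 were higher in Ts11, from 0.02 at 90 to 100 Mb to 0.36 at 20 to 30 Mb. The lowest stretch holds 253 genes, among them those of the Hoxb cluster. Of its genes, 21 were called higher in Ts15 (8.3%) and 29 higher in Ts11 (11.5%). The shares were 2.76% and 18.4% over chromosome 11 and 5.77% and 9.27% over all genes. On chromosome 15, 10 of 11 stretches were higher in Ts15, the most at 70 to 80 Mb (-0.35, 251 genes). The exception, at 40 to 50 Mb, held 23 genes and had a shift of 0.09 ± 0.10 (SE, n = 2 per line).

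On chromosome 11, 423 of 1996 genes were called (21.2%), 368 of them higher in Ts11 (18.4%) and 55 higher in Ts15 (2.76%). On chromosome 15, 289 of 1105 were called (26.2%), 225 of them higher in Ts15 (20.4%) and 64 higher in Ts11 (5.79%). Over all genes the shares called higher in Ts11 and in Ts15 were 9.27% and 5.77%. These counts rest on all 4 arrays. Without Ts11 replicate 1, Ts11 replicate 2, Ts15 replicate 1 or Ts15 replicate 2, chromosome 11 had 212, 212, 152 and 117 calls and chromosome 15 had 135, 145, 103 and 96. The share of chromosome 15 calls that were higher in Ts11 was 20.7%, 27.6%, 43.7% and 29.2% in these fits, against 22.1% with all arrays. Without Ts15 replicate 1 the split was 58 higher in Ts15 and 45 higher in Ts11. On chromosome 11 the share higher in Ts11 lay between 81.6% and 88.8%, against 87.0%.

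The chromosome 11 genes with the widest differences in the direction of the copy number were Fam183b, Acsl6, Aspa, Ankrd36 and Lypd9. Acsl6, which encodes an acyl-CoA synthetase that activates long fatty acids, was at -0.09 and 0.15 in Ts11 and at -1.80 and -1.75 in Ts15, close to the WT mean of -1.65. The Ts11 arrays lay above the others, with a difference of 1.80 ± 0.17 (SE, limma adjusted p = 0.00121). Aspa, which encodes aspartoacylase, the enzyme that cleaves N-acetylaspartate, was at -2.01 and -2.54 in Ts11 and at -4.24 and -3.90 in Ts15. Its difference was 1.80 ± 0.37 (SE, adjusted p = 0.0188), and its adjusted p was 0.0646 to 0.0987 without Ts11 replicate 1 or either Ts15 array. Fam183b, Ankrd36 and Lypd9 differed by 1.82, 1.77 and 1.66, all more than the 1.5-fold of the copy number. Fam183b was not called when any of the 4 arrays was left out, with adjusted p of 0.0543 to 0.106.

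Some chromosome 11 genes went against the copy number. Bhlha9, a basic helix-loop-helix factor of limb development, was at -3.58 and -3.50 in Ts11 and at -1.61 and -1.34 in Ts15 (difference -2.07 ± 0.15, SE). Ramp2, a receptor activity-modifying protein that makes up the adrenomedullin receptor with its partner, differed by -1.93, and its call was lost without Ts11 replicate 2 or either Ts15 array (adjusted p 0.0511 to 0.0693). Hoxb1, a homeobox gene of the hindbrain, was at -5.59 and -6.13 in Ts11 and at -4.04 and -4.11 in Ts15, a difference of -1.79. Hoxb2 and Hoxb3, its neighbours in the cluster, were also higher in Ts15, by differences of -0.90 and -0.92. Hoxb2 lost its call whichever of the 4 arrays was left out (adjusted p 0.0619 to 0.159) and Hoxb3 without Ts11 replicate 2 or either Ts15 array (0.0553 to 0.0643). The WT means of Bhlha9 and Ramp2, -1.20 and -0.74, were near the Ts15 arrays.

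The chromosome 15 genes with the widest differences in the direction of the copy number were Cdh6, Lypd2, Efcab6, Otulinl and Cthrc1. Cdh6, a cadherin of cell-cell adhesion, was at -5.81 and -5.59 in Ts11 and at -2.66 and -3.29 in Ts15, with a WT mean of -4.90. Its difference was -2.72 ± 0.23 (SE, limma adjusted p = 0.000911). Lypd2, Efcab6 and Otulinl differed by -2.32, -2.05 and -2.03, with WT means near the Ts11 arrays. The Efcab6 call was lost without Ts11 replicate 2 or either Ts15 array (adjusted p 0.0675 to 0.101). Cthrc1, a secreted protein with a collagen triple helix repeat, differed by -1.80, and here WT was nearer to Ts15, at a mean of -3.77. The Cthrc1 call was lost without either Ts15 array (adjusted p 0.0559 and 0.0652).

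Against the copy number of chromosome 15, Ccdc152, Dcstamp and Wnt10b were higher in Ts11. Ccdc152 was at 0.13 and 0.02 in Ts11 and at -1.79 and -2.08 in Ts15, a difference of 2.01 ± 0.22 (SE). Dcstamp, a membrane protein needed for the fusion of osteoclasts, differed by 1.75. Wnt10b, a Wnt ligand, differed by 1.54, from -4.46 and -4.72 in Ts11 to -5.91 and -6.35 in Ts15, and its call was lost without Ts15 replicate 2 (adjusted p = 0.0534).

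Among the called genes with the highest levels, the differences were small. Pabpc1, which encodes the main cytoplasmic poly(A)-binding protein and lies on chromosome 15, was at 4.73 and 4.54 in Ts11 and at 5.12 and 5.19 in Ts15 (difference -0.52). Snu13, a protein of the spliceosome and of nucleolar RNPs, differed by -0.46, and Triobp, an actin-bundling protein, by -0.38. On chromosome 11, Aspscr1 was higher in Ts11 by 0.35, while Ubtf, a factor of ribosomal RNA transcription, was higher in Ts15 (-0.68). For Med1, a subunit of Mediator, the brightest of 4 probes was higher in Ts15 (-0.36). The mean of the Med1 probes had the opposite sign, toward Ts11. None of these 6 calls held under quantile normalization other than that of Aspscr1, and the Aspscr1 call was lost under median scaling (adjusted p = 0.12). All 6 calls were lost without at least 2 of the 4 arrays, with adjusted p of 0.0567 to 0.189.

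A set of 17 pairs of related genes with a member on each chromosome was described side by side, such as the HP1 proteins Cbx1 (chromosome 11) and Cbx5 (chromosome 15). In 7 pairs the chromosome 11 member was higher in Ts11 and the chromosome 15 member higher in Ts15. The chromosome 11 members had a median difference of -0.00 and the chromosome 15 members a median of -0.32. Called members were Nfe2l1, a transcription factor of proteasome genes (0.51), Tns4 (-1.10) on chromosome 11, and Rarg, a retinoic acid receptor (-0.64), Col2a1, the collagen of cartilage (-1.38), Tns2 (-0.74) and Wnt10b (1.54) on chromosome 15. Their relatives Nfe2, Rara, Col1a1 and Wnt3 differed by 0.14, 0.15, -0.15 and -0.59 and were not called. The calls of Nfe2l1, Tns4, Rarg and Tns2 were each lost without at least 3 of the 4 arrays (adjusted p 0.0682 to 0.203). The tensins Tns4 and Tns2, adaptors at focal adhesions, were both higher in Ts15 although they lie on different chromosomes.

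Other pairs held no called member. The Polycomb proteins Cbx2 and Cbx7 differed by 0.21 and -0.23, each in the direction of its copy number. Cbx1 and Cbx5 differed by 0.18 and -0.32 in the same sense, and the Sp transcription factors Sp2 and Sp1 by 0.22 and -0.15. The integrin chains Itga3 and Itga5 were both toward Ts15, at -0.53 and -0.44, as were the IGF-binding proteins Igfbp4 and Igfbp6, at -0.32 and -0.29. The coiled-coil proteins Calcoco2 and Calcoco1 differed by 0.78 and -0.36, and the ATP synthase c subunits Atp5g1 and Atp5g2 by -0.00 and -0.36. The Sp pair Sp6 and Sp7, the Wnt pair Wnt9b and Wnt1, the coatomer pair Copz2 and Copz1 and the keratins Krt19 and Krt18 had differences between -0.61 and 0.06.

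Outside chromosomes 11 and 15, 3529 of 25091 genes were called (14.1%), 2182 higher in Ts11 (8.7%) and 1347 higher in Ts15 (5.37%). Of these, 804 and 471 differed by 2-fold or more. Which line held more of the calls depended on the scaling. With median scaling, which moved the median difference of these genes to -0.11, 1656 were higher in Ts11 and 2215 in Ts15, and with quantile normalization the counts were 1532 and 1414. With background correction by normexp before quantile normalization they were 1538 and 1428. Without Ts11 replicate 1, Ts11 replicate 2, Ts15 replicate 1 or Ts15 replicate 2 the total was 1929, 2094, 1673 and 1415.

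Dim genes held most of the excess of calls in Ts11. Among the 9657 genes with a mean level under -3 on the 4 arrays, 1522 were higher in Ts11 and 434 in Ts15. Of these 1522 genes, 33.0% had their probe on the right side of the array, against 50.1% of all genes this dim and 55.1% of those higher in Ts15. Among the 18535 brighter genes, 1092 were higher in Ts11 and 1193 in Ts15, with 49.9% and 46.8% on the right side and 49.8% of all. The part of the array position in the calls of dim genes was not tested.

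The genes furthest above Ts15 in Ts11, outside chromosomes 11, 15, X and Y, were Asz1, Pramel6, Hhip, Txlnb, Cdc20b and Dppa3. Asz1, a germ cell protein of the piRNA pathway that silences transposons, was at -2.57 and -2.34 in Ts11 and at -5.64 and -5.87 in Ts15. The WT arrays lay between, at -4.37 and -3.96, and the difference was 3.30 ± 0.19 (SE, limma adjusted p = 0.000251). The 250 bases before the start of Asz1 (chr6:18109062-18109311, minus strand, GRCm38.p6, from RefSeq) hold 15 CpG dinucleotides, shown in capitals, against a median of 6 over 27025 promoters of that length.

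Asz1: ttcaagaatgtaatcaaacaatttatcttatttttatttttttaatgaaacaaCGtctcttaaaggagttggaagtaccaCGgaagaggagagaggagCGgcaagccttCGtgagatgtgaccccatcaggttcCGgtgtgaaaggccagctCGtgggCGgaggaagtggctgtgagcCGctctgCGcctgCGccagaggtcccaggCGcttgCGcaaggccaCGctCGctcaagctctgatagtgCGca

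Dppa3, a maternal protein that protects DNA methylation in the zygote and marks naive ES cells, was at 1.02 and -0.02 in Ts11 and at -1.73 and -1.86 in Ts15, with WT at -2.68 and -2.76. Pramel6, of the PRAME-like family, was at -1.53 and -1.56 in Ts11 and at -4.93 and -4.75 in Ts15, a difference of 3.30 ± 0.43 (SE). Hhip, which binds Hedgehog ligands and limits their signal, was at -2.66 and -1.32 against -5.32 and -5.02. Its Ts11 replicates lay apart, and its limma adjusted p of 0.0157 rose to 0.0672 to 0.0801 without Ts11 replicate 2 or either Ts15 array. Txlnb and Cdc20b differed by 2.68 and 2.59. For Cdc20b, another probe that passed on all 4 arrays differed by 0.08.

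The genes furthest above Ts11 in Ts15 were Gkn2, Defa29, Adora1, Tfec, Aqp8 and Bmper. Adora1, the adenosine A1 receptor, was at -4.70 and -4.60 in Ts11 and at -1.16 and -1.51 in Ts15, a difference of -3.32 ± 0.15 (SE, limma adjusted p = 0.000129). Tfec, a transcription factor of the Mitf family, was at -4.77 and -4.85 against -1.25 and -1.74. Bmper, a secreted protein that binds bone morphogenetic proteins, was at -3.89 and -3.61 against -0.66 and -0.86. For Adora1, Tfec and Bmper the WT means, -2.95, -3.42 and -2.28, lay between the lines.

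Gkn2, a gastrokine of the stomach lining, was at -6.28 and -5.31 in Ts11 and at -2.75 and -1.59 in Ts15, and its call was lost without Ts15 replicate 2 (adjusted p = 0.0579). Aqp8, a channel for water and hydrogen peroxide, was at -2.87 and -2.06 against 0.92 and 0.67, a difference of -3.26 ± 0.36 (SE). Defa29, an alpha-defensin, was at -6.54 and -5.78 in Ts11 and at -2.97 and -2.56 in Ts15. Of all genes, 5.77% were called higher in Ts15 and 9.27% in Ts11. Of the 14 alpha-defensin genes tested, antimicrobial peptides of intestinal Paneth cells, 11 were higher in Ts15 and 1 in Ts11. Their sequences are alike, so that signal may be shared between their probes. The family was picked out after its values were seen.

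Of the 29 gene lists described, that of primitive endoderm held the largest share of called members. Of 25 members tested, 19 were higher in Ts15 (76%) and 1 in Ts11 (4%), against 5.77% and 9.27% of all genes. Their median difference was -1.26, against a median of -0.00 over all genes. With the members on chromosomes 11 and 15 left out, 16 of 20 were higher in Ts15 and the median was -1.32. In bulk RNA, more cells of a type and more RNA per cell cannot be told apart.

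Transcription factors of this lineage were among the members higher in Ts15. Sox17, which drives endoderm formation, was at -2.99 and -2.54 in Ts11, at 0.36 and -0.19 in Ts15 and at -2.18 and -2.61 in WT. Its Ts15 arrays stood apart from the 4 others, with a difference of -2.85 ± 0.27 (SE, limma adjusted p = 0.00116). Gata6, which specifies the lineage, was at -0.17 and -0.05 in Ts11, at 2.32 and 1.79 in Ts15 and at 0.57 and 0.52 in WT. Gata4 was at -0.41 and -0.13 against 1.78 and 1.31, Sox7 at -1.75 and -1.81 against 0.52 and -0.12, and Foxa2 at -2.64 and -2.39 against 0.50 and -0.09. Hnf4a differed by -1.32 and was not called.

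Products of the differentiated endoderm followed the same direction. Among basement membrane genes, which make up the sheet this tissue secretes, Col4a1 and Col4a2 differed by -1.15 and -1.31, Lama1 by -1.03, Lamb1 by -0.84 and Lamc1 by -0.48. The endocytic receptors of the yolk sac Cubn and Amn differed by -1.99 and -1.98, while Lrp2 (-0.49) was not called. Srgn, a proteoglycan core protein, was at -0.22 and 0.08 in Ts11 and at 2.50 and 2.27 in Ts15. Ttr, which carries thyroid hormone, was not well above background on the Ts11 arrays and was at least 3.00-fold higher in Ts15 (measured means -7.27 and -4.65, limma adjusted p = 0.0307), and its call was lost whichever of the 4 arrays was left out (0.0897 to 0.13). A bound of this kind sets the mean of the bright line against, per array of the dim line, the higher of the probe's own signal and the lowest signal called well above background. Apoa1 was the member higher in Ts11, by 0.53, and Afp was not called, at 0.22.

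Krt8 and Dab2, an intermediate filament protein of epithelia and an endocytic adaptor, lie on chromosome 15. Krt8 was at 1.54 and 1.43 in Ts11 and at 2.85 and 2.64 in Ts15, and Dab2 at -0.12 and 0.06 against 0.98 and 0.83. Their differences of -1.26 and -0.93 exceeded the chromosome's shift. The Krt8 call was lost when any of the 4 arrays was left out (adjusted p 0.05 to 0.0754). Their promoters, 250 bases before the start from RefSeq (GRCm38.p6), are shown because they are the members at 3 copies in Ts15 and hold a GATA motif, in capitals (AGATAA or TGATAA on either strand). The Krt8 window is chr15:102004343-102004592 on the minus strand and the Dab2 window chr15:6299539-6299788 on the plus strand.

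Krt8: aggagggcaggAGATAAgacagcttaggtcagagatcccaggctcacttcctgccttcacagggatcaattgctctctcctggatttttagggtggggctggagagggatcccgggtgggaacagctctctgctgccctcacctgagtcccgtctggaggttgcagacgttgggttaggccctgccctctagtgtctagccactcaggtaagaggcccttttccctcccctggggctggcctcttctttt
Dab2: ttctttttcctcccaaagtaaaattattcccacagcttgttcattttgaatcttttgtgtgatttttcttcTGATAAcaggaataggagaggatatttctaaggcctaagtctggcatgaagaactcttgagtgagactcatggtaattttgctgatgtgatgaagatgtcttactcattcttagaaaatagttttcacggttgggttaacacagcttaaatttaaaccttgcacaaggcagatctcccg

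Of the 25 members, 16 had a promoter in the table, and 3 of these (18.8%) held either motif, against 17.0% of all 27025 promoters.

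The WT arrays lay nearer to Ts11 than to Ts15 for most members. Against WT, 16 of the 25 members were higher in Ts15 (2.58% of all genes) and none lower. In Ts11, 2 members, Lrp2 and Srgn, were lower than in WT (4.1% of all genes) and none higher (4.03% of all genes). The median difference from WT was 0.78 for Ts15 and -0.43 for Ts11, both taken against the same WT arrays. The summed signal of the list, in units of the 75th percentile signal, was 58.6 and 58.8 in Ts11, 125 and 106 in Ts15 and 73.3 and 65.1 in WT. The feeder list shares Pdgfra with this one. Its 30 members had 3 calls toward Ts15 and a median difference of -0.31, and the part of feeder RNA in the difference was not tested. When any of the 4 arrays was left out, 14 to 17 members were called, all higher in Ts15, so that the Apoa1 call was lost each time.

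**Figure D3:**
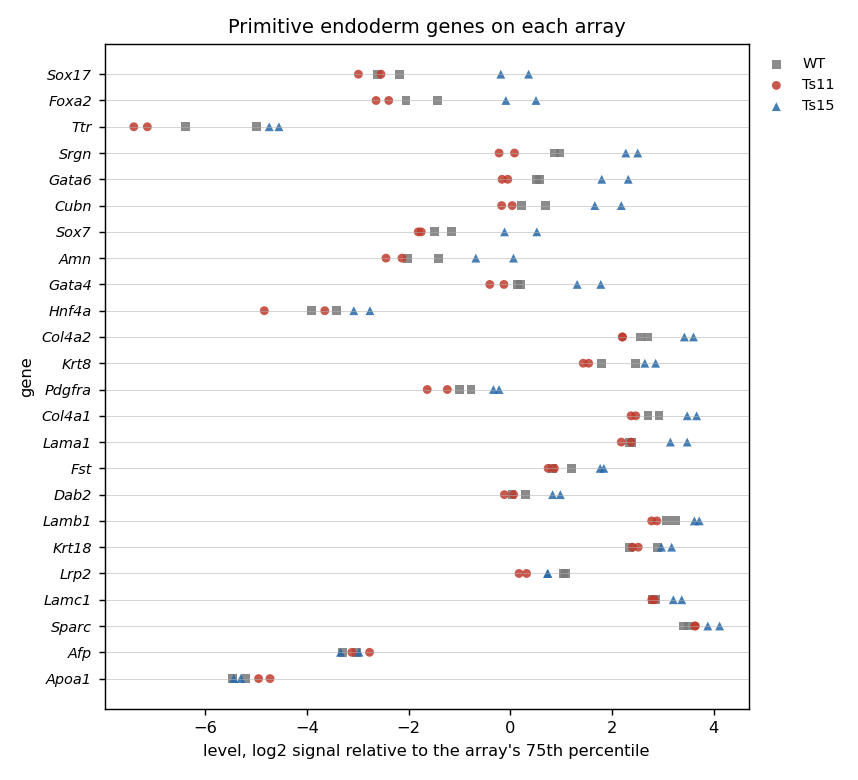
Level of 24 of the 25 primitive endoderm genes (rows, ordered by their difference) on each array of WT (squares), Ts11 (circles) and Ts15 (triangles), as log2 signal relative to the 75th percentile of the array (x axis). For 22 of these 24 genes both Ts15 arrays lie above both Ts11 arrays, and Apoa1 is the gene with both Ts11 arrays above.

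Genes of the 2-cell-like state, a rare state of ES cells marked by Zscan4 and by transcripts of the newly activated embryonic genome, were lower in Ts11. Of 21 members tested, 14 were higher in Ts15 (66.7%, against 5.77% of all genes) and none in Ts11 (9.27% of all genes). Their median difference was -0.98. Zscan4c, which acts in telomere maintenance, was at 1.32 and 1.44 in Ts11, at 2.46 and 2.30 in Ts15 and at 2.67 and 2.51 in WT. Ts15 was near WT and Ts11 below both, with a difference of -0.997 ± 0.135 (SE, limma adjusted p = 0.00394). Zscan4e, Zscan4f, Gm4340, Gm8300 and Usp17lc differed by -0.83, -0.75, -1.12, -0.72 and -1.31. The widest difference was that of Pramel16, at -1.77. Zfp352 and Usp17la were not called, at 0.13 and 0.16.

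Against WT, 11 of the 21 were lower in Ts11 (4.1% of all genes) and none in Ts15 (4.86% of all genes), with median differences of -0.83 and 0.12. Several members belong to families of near-identical copies (Zscan4, Tdpoz, Usp17), whose probes may share signal, so these calls are not independent of each other. Without Ts15 replicate 1 or Ts15 replicate 2 the count of called members was 7 and 9, all higher in Ts15.

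PRAME-like genes moved both ways. Of 25 tested, 5 were higher in Ts11 (20%, against 9.27% of all genes) and 11 in Ts15 (44%, against 5.77%). Pramel6 and Pramel7, which lie together on chromosome 2, were higher in Ts11 by 3.30 and 2.28. Most of the 11 higher in Ts15 lie on chromosome 4 and the others on chromosome 5, such as Pramel19 (-1.70), Pramel37 (-1.65) and Pramel20 (-1.56), while 3 members on chromosome 4 were higher in Ts11. This family too was picked out after its values were seen.

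X-linked genes were called higher in Ts11 at a larger share than all genes (9.27%). Of the 1122 genes of the X chromosome tested, 220 were called (19.6%), 183 higher in Ts11 (16.3%) and 37 in Ts15 (3.3%). Their median difference was 0.09 and their mean difference 0.22. The Magea, Xlr and Rhox families were picked out after their values were seen. Each holds closely related copies, which may share signal. All 6 Magea genes, cancer-testis antigens, and all 7 Xlr genes, expressed in lymphoid and germ cells, were higher in Ts11, with median differences of 3.04 and 1.98. Magea5, Magea8 and Magea10 were not well above background in Ts15, and with these 3 at their lower bounds the Magea median was 2.76. Of 18 Rhox genes, reproductive homeobox factors, 13 were higher in Ts11 and none in Ts15, with a median of 1.07, or 0.95 with Rhox3a, at background in Ts15, at its bound.

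Rhox2c was at 1.81 and 1.67 in Ts11, at -0.89 and -0.85 in Ts15 and at -0.47 and -0.54 in WT. Its difference of 2.60 ± 0.13 (SE, limma adjusted p = 0.000184) was followed by Rhox2e, at 2.40. The promoters of these genes show how alike the copies are. They differ at 2 of 250 positions, in capitals, and are read from the plus strand at chrX:37453409-37453658 (Rhox2c) and chrX:37530218-37530467 (Rhox2e) of GRCm38.p6, from RefSeq.

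Rhox2c: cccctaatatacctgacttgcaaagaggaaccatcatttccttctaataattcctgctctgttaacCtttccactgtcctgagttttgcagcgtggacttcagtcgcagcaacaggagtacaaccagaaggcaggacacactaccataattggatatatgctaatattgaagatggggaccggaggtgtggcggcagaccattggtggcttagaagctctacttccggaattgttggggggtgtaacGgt
Rhox2e: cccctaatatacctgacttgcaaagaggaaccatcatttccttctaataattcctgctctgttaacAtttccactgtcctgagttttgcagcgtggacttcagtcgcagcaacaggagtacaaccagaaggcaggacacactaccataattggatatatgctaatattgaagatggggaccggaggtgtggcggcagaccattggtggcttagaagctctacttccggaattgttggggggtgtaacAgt

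Rhox5, Rhox6, Rhox8 and Rhox9 were not called, with differences from -0.34 to -0.15, so not all of the cluster differed alike in this test. Xlr3a was at 1.10 and 1.00 in Ts11, at -0.97 and -1.44 in Ts15 and at a mean of -2.12 in WT. Magea5 and Magea8 were not well above background in Ts15 and were at least 7.30-fold and 7.15-fold higher in Ts11 (measured means -3.38 and -7.93, and -3.41 and -6.76). The third of the largest bounds on that side was that of Olfr1506, an olfactory receptor gene on chromosome 2, at least 4.34-fold, whose Ts11 arrays were far apart, at -5.33 and -2.94, and whose call was lost without either Ts15 array (adjusted p 0.0631 and 0.104). Luzp4 and H2bfm, on the X chromosome, differed by 2.86 and 2.69. S100g, a calcium-binding protein, was the X-linked gene with the widest difference toward Ts15 (-2.85), at -2.69 and -2.33 against 0.52 and 0.15.

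Xist, the RNA that coats the inactive X chromosome, was at 0.97 and 0.65 in Ts11 and at 0.28 and -0.16 in Ts15 and was not called (difference 0.75 ± 0.29, SE, limma adjusted p = 0.119).

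Of 7 Y-linked genes tested, 3 were higher in Ts15 (42.9%, against 5.77% of all genes) and none in Ts11 (9.27% of all genes). Eif2s3y, a Y-linked translation initiation factor subunit, was at -8.78 and -8.21 in Ts11, at 0.85 and 0.77 in Ts15 and at 0.84 and 0.70 in WT. It was not well above background on either Ts11 array and was at least 132-fold higher in Ts15 (limma adjusted p = 1.13e-06). Ddx3y, an RNA helicase, was at -8.69 and -8.17 against -0.72 and -0.86 and was at least 43.5-fold higher in Ts15. Uty, a histone demethylase relative, was dim in both lines, well above background on 1 of the 2 Ts15 arrays and on neither Ts11 array, and at least 1.34-fold higher in Ts15. Zfy1, Zfy2, Sry and Rbmy were not called, and Zfy2 and Sry were above background on all 4 arrays. Of all 15 genes placed on the Y chromosome by their probes, 2 without a settled symbol were higher in Ts11 (13.3%, against 9.27% of all genes). The label gives no sex for either line, and WT is male.

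The X-linked relatives were measured by several probes. For Ddx3x, 3 probes differed by 0.12 to 0.23, none called. For Eif2s3x the probes disagreed. The brighter probe differed by -1.81 (levels 0.90 and 0.54 in Ts11, 2.58 and 2.48 in Ts15) and the other by -0.02. In WT, where Eif2s3y was near its Ts15 level, the brighter probe was at 2.18 and 2.30. It was at 1.30 and 1.05 in Ts6 and at 1.18 and 1.07 in Ts8, where Eif2s3y was lower than in WT. Whether this probe shares signal with Eif2s3y was not tested. The brighter probe, whose 60 bases span 5409 bases of chromosome X (chrX:91436226-91441634, mm9), is shown because a single-probe reading of Eif2s3x would rest on it.

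Eif2s3x: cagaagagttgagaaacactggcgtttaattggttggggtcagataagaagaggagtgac

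**Figure D4:**
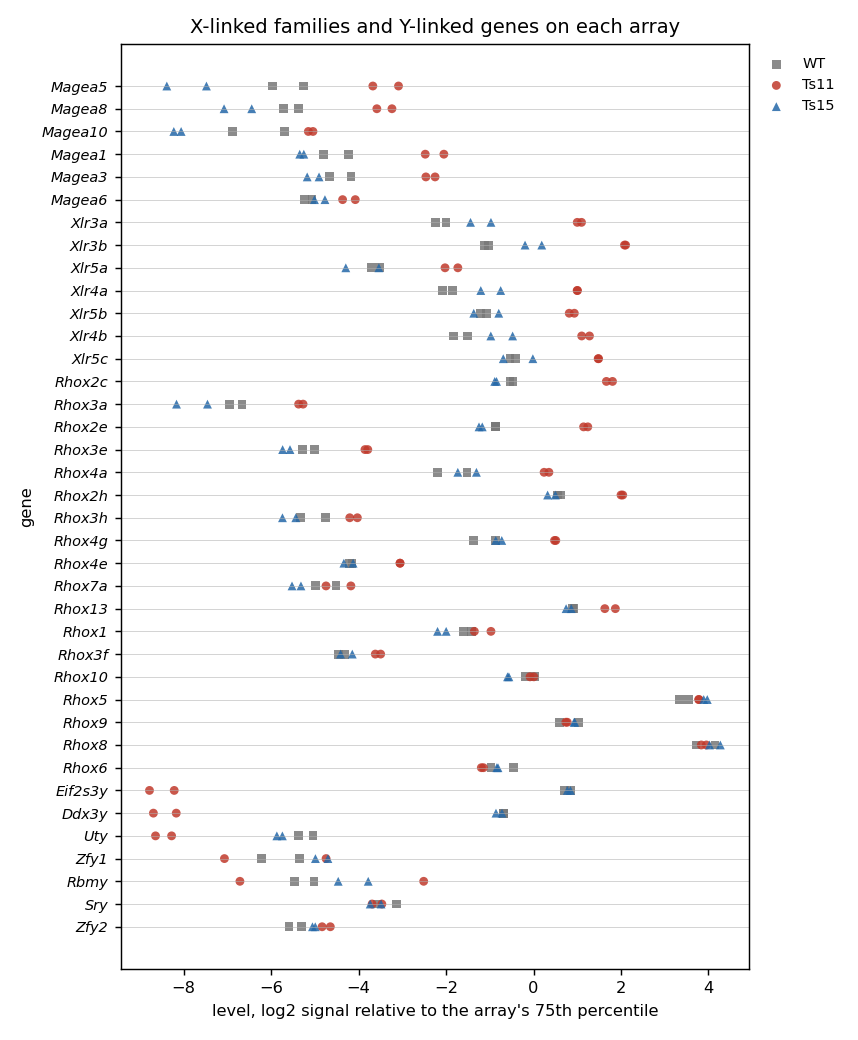
Level of the Magea, Xlr and Rhox genes and of 7 Y-linked genes (rows) on each array of WT (squares), Ts11 (circles) and Ts15 (triangles), as log2 signal relative to the 75th percentile of the array (x axis). For the 6 Magea and 7 Xlr genes both Ts11 arrays lie above both Ts15 arrays, and Eif2s3y and Ddx3y lie near -8 to -9 in Ts11 and near WT in Ts15.

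Wnt ligands act through beta-catenin, and targets such as Cdx1, Sp5 and the secreted inhibitor Dkk1 report on that signal. Of 17 Wnt target and feedback genes, 5 were higher in Ts15 (29.4%, against 5.77% of all genes) and 3 in Ts11 (17.6%, against 9.27%), with a median of -0.59. Without Ts11 replicate 1, Ts11 replicate 2, Ts15 replicate 1 or Ts15 replicate 2, 6, 5, 5 and 4 members were called, of which 4, 5, 4 and 4 were higher in Ts15. Dkk1 was at -3.89 and -4.07 in Ts11 and at -0.79 and -1.47 in Ts15, with a difference of -2.85 ± 0.29 (SE). Wnt8a, a ligand, and Cdx1, a homeobox gene of the posterior embryo, differed by -2.74 and -2.48, and Sp5 by -1.31. Axin2, a negative feedback component that many Wnt signals induce, differed by -0.44 and was not called. Tcf7l1, a repressor of Wnt targets, and Znrf3, a chromosome 11 gene whose product removes Wnt receptors, were higher in Ts11, by 0.56 and 0.61.

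Of 23 genes of FGF and ERK feedback, 6 were higher in Ts15 (26.1%, against 5.77% of all genes) and none in Ts11 (9.27% of all genes). Without Ts11 replicate 1, Ts11 replicate 2, Ts15 replicate 1 or Ts15 replicate 2, 3, 0, 0 and 1 members were called, and 1 of the 3 was higher in Ts11. The widest differences were those of Dusp4, a phosphatase of ERK (-1.34), Myc (-0.89), Il17rd, an inhibitor of FGF signals (-0.74), and the receptor Fgfr2 (-0.73). Myc lies on chromosome 15 and was at 1.97 and 1.88 in Ts11, at 2.85 and 2.79 in Ts15 and at 2.00 and 2.19 in WT; its call was lost whichever of the 4 arrays was left out (adjusted p 0.0573 to 0.0827). Of 24 genes of the Myc and Max network, 4 were higher in Ts15 (Myb, Myc, Mxd4 and Bop1) and 1, Mnt on chromosome 11, in Ts11, and 1 or 2 were called with an array left out. The calls with all arrays were 16.7% of this list toward Ts15 and 4.17% toward Ts11, against 5.77% and 9.27% of all genes. Most Myc target genes of the list, among them Odc1 (-0.14), Ncl (0.06) and Npm1 (0.05), were not called. Of 20 LIF and Stat3 genes, 2 were higher in each line (10%, against 9.27% and 5.77% of all genes), with Pim1 and Pim3 in Ts15 (-0.59 and -0.67) and Klf4 and Ly6g6e in Ts11 (0.45 and 1.23), and 1 to 3 were called with an array left out.

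Lineage lists other than endoderm held fewer calls. Higher in Ts15 were 17.6% of neuroectoderm genes and 22.2% each of mesoderm, primed epiblast and trophectoderm genes, against 5.77% of all genes. Higher in Ts11 were 0% to 5.88% of these lists, against 9.27% of all genes. Of 18 mesoderm and primitive streak genes, 4 were higher in Ts15 and none in Ts11, led by Cdx1, Cdx2 (-1.70), Snai1 (-0.88) and Nkx2-5 (-0.81). Brachyury, the T gene, differed by -0.89 and was not called. Of 18 primed epiblast genes, 4 were higher in Ts15 and 1 in Ts11. Among them Dnmt3b, a de novo DNA methyltransferase, was at 3.24 and 2.77 against 3.67 and 3.57, and Fgf5 differed by -1.67 without being called. Of 17 neuroectoderm genes, 3 were higher in Ts15 (Dll1 and Sox11 among them, by differences of -1.03 and -0.78) and 1, Dcx, in Ts11. With an array left out, 2 to 5 mesoderm, 2 to 4 primed epiblast, 1 or 2 neuroectoderm and 2 to 6 trophectoderm genes were called. Of 18 trophectoderm genes, 4 were higher in Ts15 (Cdx2, Peg10, Fgfr2, Sct) and 1, Esx1, in Ts11.

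Of 25 naive pluripotency genes, 3 were higher in Ts11 (12%) and 2 in Ts15 (8%), near the 9.27% and 5.77% of all genes, and the median was 0.10. With an array left out, 1 to 3 were called. Pecam1, a cell adhesion molecule of chromosome 11 that marks naive cells, was at 1.39 and 2.07 in Ts11 and at 0.18 and 0.14 in Ts15, a difference of 1.57 ± 0.29 (SE). Its call was lost without Ts11 replicate 2 or either Ts15 array (adjusted p 0.0548 to 0.0672). Gbx2, a homeobox gene downstream of LIF, was higher in Ts15, by a difference of -1.33, and lost its call whichever of the 4 arrays was left out (adjusted p 0.0753 to 0.106). Of 29 germline and piRNA genes, 4 were higher in Ts11 (Asz1, Tex11 and Dazl, by 3.30, 0.93 and 0.88, and Sycp2) and 2 in Ts15, and 3 or 4 were called with an array left out. With all arrays, 13.8% of this list was called higher in Ts11 and 6.9% in Ts15, near the 9.27% and 5.77% of all genes. Sycp2, a protein of meiotic chromosomes, was not well above background in Ts15 and was at least 1.93-fold higher in Ts11. Its call was lost with quantile normalization (adjusted p = 0.058) and without Ts11 replicate 2 or either Ts15 array (0.0591 to 0.0984). The genes higher in Ts15, Mov10l1, a helicase of piRNA production (-1.30), and Mei1, needed for meiotic breaks (-1.07), both lie on chromosome 15. Ddx4 and Piwil2 differed by -0.05 and 0.11 and were not called.

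Imprinted genes, expressed from the copy of a single parent, went both ways, with 6 of 32 higher in each line (18.8%). Over all genes the shares were 9.27% in Ts11 and 5.77% in Ts15. Phlda2 and Cdkn1c, neighbours in a growth-limiting cluster on chromosome 7, were higher in Ts15 (-1.20 and -1.14), while Kcnq1ot1, the noncoding RNA of that cluster, was higher in Ts11 (1.52 ± 0.41, SE, adjusted p = 0.0452). Kcnq1ot1 was at -0.96 and -0.72 in Ts11, at -2.15 and -2.58 in Ts15 and at -2.32 and -1.11 in WT, so its WT arrays spanned most of the range of the 4 others. Its call was lost with quantile normalization (adjusted p = 0.057) and whichever of the 4 arrays was left out (0.105 to 0.192). Grb10, on chromosome 11, which limits growth signals, was higher in Ts11 than in Ts15 by 1.00 but at -2.27 and -1.73 lay under the WT levels of -1.37 and -1.34. Commd1 and Zrsr1, a pair on chromosome 11 with Zrsr1 inside the Commd1 gene, were both higher in Ts11 by 0.54, and H19 higher in Ts15 (-0.68). Peg13, on chromosome 15, was higher in Ts11, by 0.68. With an array left out, 4 to 9 of the 32 were called.

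The gene clusters that exist on both chromosomes were described as well. Of 18 Hox genes of the Hoxb and Hoxc clusters, 4 were higher in Ts15 (22.2%) and 1, Hoxc5 (0.46), in Ts11 (5.56%). Of 23 keratin genes, 6 were higher in Ts11 (26.1%) and 2 in Ts15 (8.7%). The shares over all genes were 9.27% in Ts11 and 5.77% in Ts15. Krt23, Krt12, Krt15 and Krt24 of chromosome 11 were higher in Ts11 by 1.41, 1.11, 0.69 and 0.51, and Krt2 and Krt4 of chromosome 15 were also higher in Ts11, by 1.39 and 0.65. Krt8 and Krt1 were the keratins higher in Ts15. With an array left out, 1 or 2 Hox genes and 2 or 3 keratins were called.

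Housekeeping and stress lists held calls near or under the share over all genes, 15% in either direction. No member of 47 respiratory chain genes was called by limma, and 0 were higher in Ts11 and 7 in Ts15 at an unadjusted p under 0.05. Of 34 proteasome genes, 1 was called, Psme4 of chromosome 11 (0.90), and of 35 DNA replication genes 1, Cdc6 of chromosome 11 (0.69). Of 27 mitosis genes, 1 was called, Racgap1 of chromosome 15 (-0.67), and of 31 sterol and fatty acid synthesis genes 1, Sqle of chromosome 15 (-0.63). These 4 lie on a chromosome that differs in copy number, each in the direction of its copy. The Sqle call was lost whichever of the 4 arrays was left out (differences of -0.78 to -0.49). That of Racgap1 was lost without Ts11 replicate 1 or Ts15 replicate 1 (-0.64 and -0.56). Psme4 and Cdc6 kept their calls in all 21 alternatives. Of 52 cytosolic ribosome genes, 2 were called (Rplp0, -0.54, and Fau, -0.44). Neither call held with an array left out. Under quantile normalization these 2 genes differed by -0.18 and -0.07 and were not called (limma adjusted p 0.314 and 0.738). The median of the list was -0.26, with members from -0.63 to -0.05. At an unadjusted p under 0.05, 0 members were higher in Ts11 and 18 in Ts15.

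Of 25 genes of p53 and its targets, 2 were higher in Ts11, Ccng1 of chromosome 11 (0.76) and Rrm2b (0.52), which lies on chromosome 15 and thus went against its copy number. Of 30 genes of the unfolded protein and amino acid response, 3 were higher in Ts11, Dnajb9 (1.00), Herpud1 (0.85) and Eif2ak3 (0.73), and 1, Atf3 (-0.82), in Ts15. Of 24 heat shock genes, Hspa1a (-0.82) and Hsf1 of chromosome 15 (-0.43), the regulator of that response, were higher in Ts15. Of 30 glycolysis and hypoxia genes, Gapdh, Aldoa and Pfkm were higher in Ts15 (-0.70, -0.60 and -0.80). Under quantile normalization Gapdh and Aldoa were not called, at -0.32 and -0.12 (limma adjusted p 0.155 and 0.616), while Pfkm was. Of 31 interferon response genes 1 was higher in Ts15, Bst2 (-0.94). Of 32 genes of DNA and histone methylation, Suz12 and Kdm6b of chromosome 11 were higher in Ts11 (0.55 and 0.36) and Dnmt3b and Ehmt2 higher in Ts15 (-0.62 and -0.48). The calls of Rrm2b, Atf3, Dnmt3b and Ehmt2 were also lost under quantile normalization, and those of Ccng1 and Kdm6b under median scaling. With an array left out, no more than 1 member each of the heat shock, glycolysis, interferon and methylation lists was called, and 0 to 3 of the p53 and 2 or 3 of the unfolded protein response list.

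**Figure D5:**
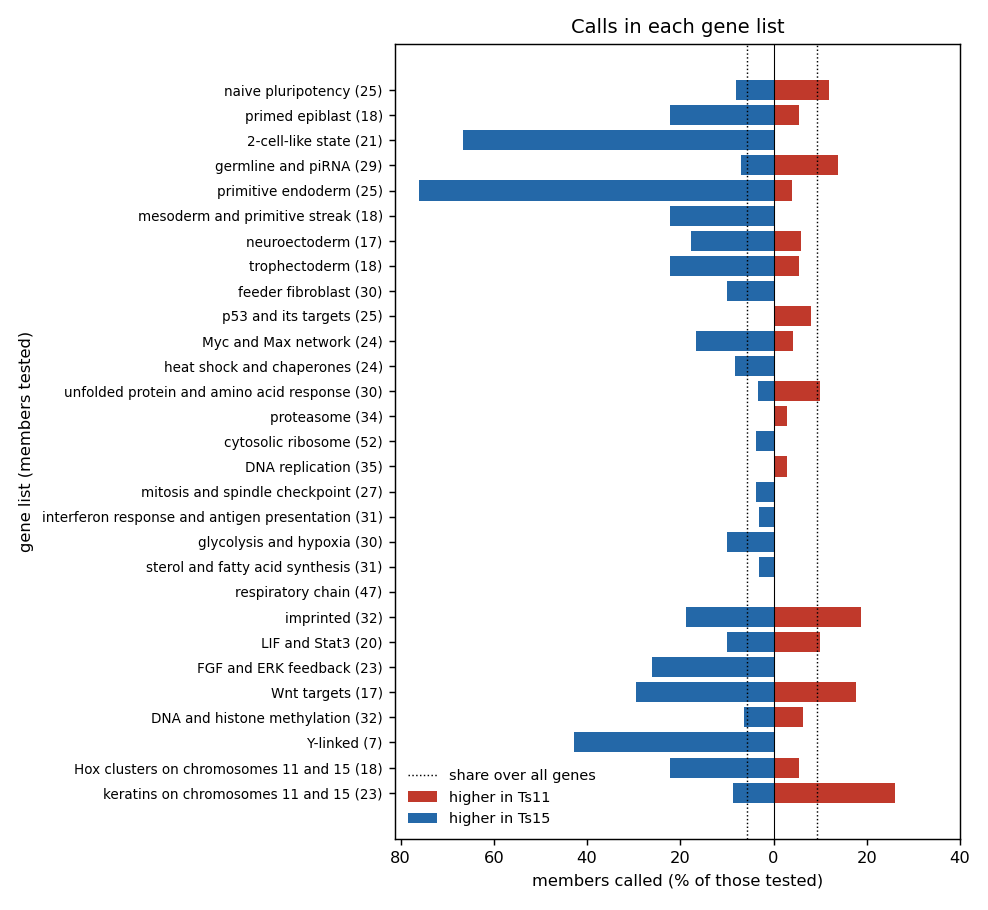
Share of the tested members of each of 29 gene lists (rows, members tested in parentheses) called higher in Ts11 (right) or higher in Ts15 (left), in percent (x axis); dotted lines mark the shares over all genes, 9.27% and 5.77%. Primitive endoderm, with 19 of 25 members, and the 2-cell-like state, with 14 of 21, reach furthest toward Ts15.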

How the data were processed

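The deposited scanner files hold the processed signal, an intensity in 1 colour, made with Agilent Feature Extraction 10.7.3.1 per the file headers; the submitters' processing notes name the same program. The deposited series table holds log2 values of the same arrays, of which the centring is not stated, and served as an alternative (its array medians lie between -3.42 and -3.32). Each value is the log2 processed signal after subtraction of its array's own 75th percentile over noncontrol spots. For Ts15 replicate 2 the deposited intensities carry 3 significant digits. Of 55681 probes, 176 with outlier flags were left out; 43055 passed the scanner's background test on both arrays of some group, and the brightest probe stood for each of 28192 genes. Names were updated by accession for 26756 of 28390 probes through RefSeq (GRCm38.p6); chromosomes and positions are those of the mm9 probes. Of 1227 called genes with several probes tested, 24.8% had a probe of opposite sign.

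The lines were tested by limma (version 3.58.1, R 4.3.3), fitting 5 group means to 10 arrays with 5 residual degrees of freedom and 2.67 from the prior; p-values were adjusted by Benjamini-Hochberg over all genes; all tests were two-sided. With 2 arrays a line, precision is limited by their number. The fit was tested on simulated data. Named genes were called genes with a settled symbol whose arrays did not overlap between lines and, other than the bounds and Y-linked genes, were above background at least once in each line: the 6 highest and 6 lowest outside chromosomes 11, 15, X and Y, the 5 highest on chromosome 11, the 5 lowest on chromosome 15, the 3 furthest against the copy number and the 3 of highest level on each, the 3 largest bounds each way, called Y-linked genes, up to 4 called genes a list, and the related pairs. X-linked genes, genes that were not called and further list members were named after their values were seen. The members, lists (29, with 763 of 793 members tested), tests and alternatives were chosen with earlier results of these data known. Figures were made with Python 3.11.15 and matplotlib 3.10.9. Values of some single genes are not reported here; counts over lists include all members tested.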

Additional observations from a re-analysis of the deposited data

Results flagged for a closer look

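For 6 of the genes named by rule, the difference from WT was called in both lines with opposite sign. The difference between the lines is itself the comparison tested here. The rule takes genes with wide differences between the lines, which favours genes with WT between them. Over all 28192 genes, 430 were called against WT in both lines, 55 of them with opposite sign. Asz1 was 1.72 above WT in Ts11 and -1.59 from WT in Ts15, so that the lines differed by 3.30. Magea5 (2.24 and -2.31) and Magea8 (2.14 and -1.21) went the same way, with differences of 4.55 and 3.35 between the lines; both were not well above background in Ts15, so these are measured values and no bounds. Adora1 (-1.70 in Ts11 and 1.61 in Ts15), Tfec (-1.39 and 1.92) and Bmper (-1.47 and 1.52) went the other way, with differences of -3.32, -3.31 and -2.99. The WT arrays are shared by both comparisons of a gene, and all 6 calls between the lines were kept under each alternative that gave a value, 21 for Asz1, Adora1, Tfec and Bmper and 20 for Magea5 and Magea8.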

How the results depend on the processing

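Both chromosome shifts kept their sign under every alternative that gave one. Median scaling and centring on the 15 other autosomes could not change a shift, which is taken within each array. The replicate block could not either, since each line holds both replicate numbers. For chromosome 11 the shift moved by more than the spread between replicates with no filter on dim probes (0.16) and when Ts11 was set against WT, Ts6 and Ts8 of its own slide (0.23), and lay between 0.17 and 0.19 when an array was left out. For chromosome 15 it moved with no filter (-0.20) and with normexp and quantile normalization (-0.20), and lay between -0.25 and -0.23 when an array was left out. The fit on the 4 arrays alone, with 2 residual degrees of freedom in place of 5, called 2053 genes elsewhere, 209 on chromosome 11 and 148 on chromosome 15. With any array of the 10 left out the counts were 1415 to 3628, 117 to 433 and 96 to 285; a lone array was then assumed to vary like the other groups. The replicate block gave 3703, 437 and 293 calls. Replicate numbers do not pair the arrays (replicate differences correlated at 0.07 across genes), and the block changed no count by more than 1.5 times. Of 141 called genes among those named, 70 kept their call in all 21 alternatives; 42 and 51 lost it without Ts11 replicate 1 or 2, and 63 each without Ts15 replicate 1 or 2. Only Med1 (0.39 as the mean of its probes) and Triobp (0.034 with normexp and quantile normalization) changed sign; the cause was not tested. Of the 29 lists, 26 changed their count by more than 1.5 times without at least 1 of the 4 arrays, the 2-cell-like list among them and the primitive endoderm list not.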
